A study of Trichosurus vulpecula with 6 samples.

Results

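The genes described here were 6 markers of the adipocyte in the ear skin of the common brushtail possum (Trichosurus vulpecula): ADIPOQ, LEP, PLIN1, CIDEC, LPL and FABP4. They were selected on their measured levels in these same libraries, so the levels and the difference between coat colours of each one are a description and carry no test. Standard errors and confidence intervals printed for them reflect the spread between libraries and are not to be read as a test. Of the 6 genes, 4 (ADIPOQ, PLIN1, CIDEC and LPL) had an entry by symbol in the RefSeq gene table of the possum assembly mTriVul1.pri and an assembled transcript in all 6 libraries, among 18002 genes with an assigned transcript. FABP4 and LEP had no entry by symbol in that table, and no transcript in the 6 libraries carried any of the 6 names, so no value was assigned to FABP4 or LEP. A minimum mean of 1 TPM was passed by 3 of the 6, namely ADIPOQ, PLIN1 and LPL.

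The libraries came from ear punches of adult female possums from Dunedin, New Zealand, 3 with grey fur and 3 with black fur, 1 library per animal. An ear punch holds skin with whatever cartilage, muscle, gland and fat the punch takes in, and no cell type was enriched before RNA extraction. Poly(A)-selected, strand-specific libraries were prepared from 250 ng of RNA and sequenced as 120 bp single-end reads. Levels are given in TPM, a measure of transcript abundance that scales reads to transcript length and to the size of the library, so that genes can be compared with each other. Where 3 values are given for a colour, they are those of its replicates 1, 2 and 3 in that order, and of paired means the grey one comes first.

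Adipocytes of the skin lie below the dermis and around hair follicles. They store triglyceride in a large droplet coated by perilipin 1 (PLIN1) and enlarged by CIDEC, take up fatty acids that lipoprotein lipase (LPL) releases from circulating lipoproteins, carry them on the binding protein FABP4, and secrete the hormones adiponectin (ADIPOQ) and leptin (LEP). LPL is also made by muscle and macrophages, whereas adiponectin is the most restricted of these products to fat.

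Aligned sequence ranged from 4.17 to 10.2 gigabases per library, lowest in grey replicate 1. The black replicate 1 library stood apart in skeletal muscle markers, which summed to 3940 TPM there and to 73.1 to 128 TPM in the other libraries, and grey replicate 3 had the lowest sum of fibroblast markers, 962 TPM against 2304 to 3609 TPM. In the comparison of black with grey skin by limma, 3 of 15547 genes passed an adjusted p of 0.05, and 356 had an unadjusted p under 0.05. The black minus grey difference in log2(TPM + 1) had a median of 0.04 over all genes tested.

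The 4 measured genes spanned a wide range of levels, with LPL highest, then PLIN1, ADIPOQ and CIDEC by mean TPM. In grey skin the mean was 33.7 ± 15.8 TPM for LPL, 13.7 ± 7.48 TPM for PLIN1, 2.25 ± 1.07 TPM for ADIPOQ and 0.592 ± 0.260 TPM for CIDEC (SD, n = 3). Black skin had 30.5 ± 8.79 TPM for LPL, 9.59 ± 7.71 TPM for PLIN1, 1.88 ± 1.17 TPM for ADIPOQ and 0.597 ± 0.242 TPM for CIDEC (SD, n = 3). The order LPL, PLIN1, ADIPOQ, CIDEC held in every library but black replicate 3, where CIDEC, at 0.850 TPM, was above ADIPOQ, at 0.594 TPM, and PLIN1 was at 1.31 TPM. By mean TPM, LPL was above 77.2% of the genes with an assigned transcript, PLIN1 above 52.7%, ADIPOQ above 20.4% and CIDEC above 10.4%. The colours overlapped for all 4 genes. Over the genes tested, 6.31% had colours that did not overlap.

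**Figure D1:**
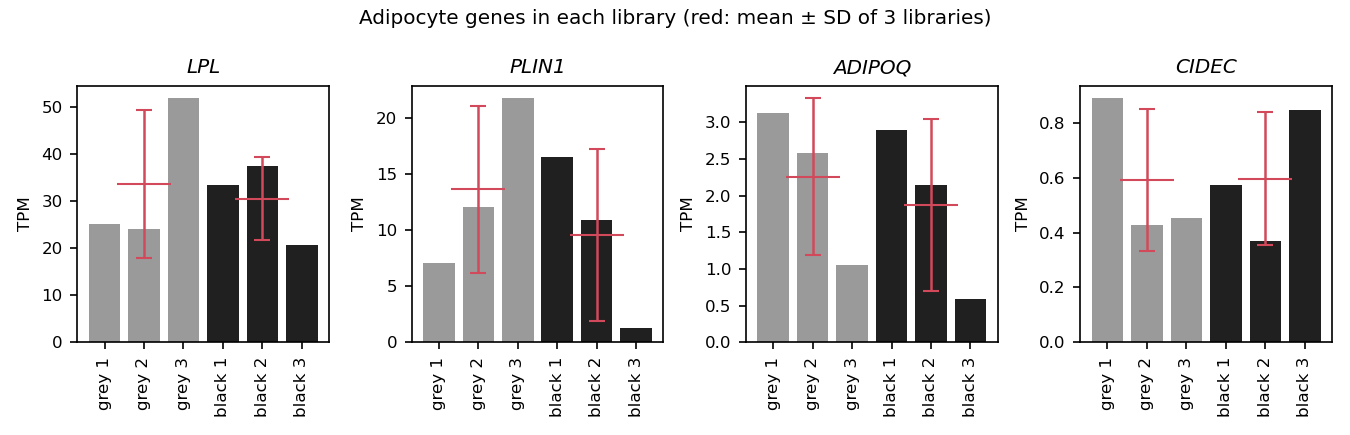
TPM (y axis, linear, from 0, a separate scale per gene) of LPL, PLIN1, ADIPOQ and CIDEC in each of the 3 grey and 3 black libraries (bars), with the mean and SD of each colour in red. The bars of the colours overlap for each gene, and black replicate 3 is lowest for LPL (20.6 TPM), PLIN1 (1.31 TPM) and ADIPOQ (0.594 TPM) but not for CIDEC.

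ADIPOQ (gene ID 118858352, chromosome 7, 17281187 to 17294862) encodes adiponectin, a hormone of fat cells that raises insulin sensitivity in liver and muscle. It measured 3.13, 2.58 and 1.06 TPM (grey replicates 1, 2 and 3) and 2.89, 2.14 and 0.594 TPM (black replicates 1, 2 and 3). Grey replicate 1 and black replicate 1 were the highest libraries of their colour and grey replicate 3 and black replicate 3 the lowest, across a 5.27-fold range, so each colour held both high and low animals. The black minus grey difference in log2(TPM + 1) was -0.21 (SE 0.46, 95% confidence interval -1.30 to 0.88). It turned to 0.16 without black replicate 3 and was -0.01 without grey replicate 1, -0.12 without grey replicate 2, -0.51 without grey replicate 3, -0.48 without black replicate 1 and -0.33 without black replicate 2. Each library had 1 assembled transcript of ADIPOQ, with 2 exons at 17291072 to 17291303 and 17293447 to 17294862 in the exon model, and no exon was assigned to ADIPOQ upstream of these in its span. The transcript rested on 20.6 to 152 reads per library, as estimated from coverage. Coverage of the last exon over that of the exon before it was 2.07, 0.866 and 2.52 in the grey libraries and 0.863, 0.681 and 0.582 in the black libraries, so the ratio was above 1 in grey replicates 1 and 3 and below 1 in the others.

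Summed Schwann cell markers and the fibroblast gene DCN, singled out after its values were seen, were also lowest of their colour in grey replicate 3 and black replicate 3, but single genes of both lists did otherwise. Summed Schwann cell markers (4 of 5 listed had an entry) were 86.3 to 188 TPM (grey) and 97.8 to 136 TPM (black), and summed fibroblast markers (5 of 6 had an entry) were 962 to 3609 TPM (grey) and 2304 to 2713 TPM (black), lowest in grey replicate 3 but not in black replicate 3. No marker with an entry on either list was at 0 in all libraries. SOX10, a transcription factor of Schwann cells, was highest of all in grey replicate 3, at 10.7 TPM. In black replicate 3 the fibroblast genes LUM, COL1A1 and PDGFRA were highest of the 6 libraries, at 719, 354 and 20.1 TPM. DCN, the dermal proteoglycan decorin, measured 2236, 1641 and 720.0 TPM (grey) and 1943, 1569 and 1188 TPM (black). Over the 6 libraries Pearson's r between ADIPOQ and DCN was 0.81 and Spearman's rho 0.94. The 2 genes were measured in the same libraries, and the part of dermal content in the ADIPOQ levels was not tested. In RNA from whole punches, fewer adipocytes and less RNA of these genes per adipocyte cannot be told apart.

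PLIN1 (gene ID 118829396, chromosome 8, 123537771 to 123550966) encodes the protein that coats the lipid droplet of fat cells and holds lipases back from it. Its level was 7.11, 12.1 and 21.8 TPM in grey replicates 1, 2 and 3 and 16.6, 10.9 and 1.31 TPM in black replicates 1, 2 and 3. Grey replicate 3 was the highest and black replicate 3 the lowest library, over a 16.7-fold range that turns on how the transcripts of black replicate 3 are counted, as described next. With black replicate 3 at 1.31 TPM, the black minus grey difference in log2(TPM + 1) was -0.78 (SE 0.78, 95% confidence interval -2.63 to 1.08). It turned to 0.11 without black replicate 3, was -0.39 without grey replicate 3 and was -1.36 without black replicate 1. Between 2 and 7 transcripts per library were assigned to PLIN1, resting on 138 to 4520 reads over their whole length. Some of these transcripts ran into a neighbouring gene, so the reads are not those of PLIN1 exons alone. The 138 reads of black replicate 3 leave out a transcript of that kind.

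In every library at least 1 of the assembled transcripts joined exons of PLIN1 to exons in the span of PEX11A, a peroxisomal membrane protein gene whose RefSeq span ends 1877 nt upstream of PLIN1. Joined transcripts held 84.7%, 54.7% and 36.2% of the TPM of all transcripts with a PLIN1 exon in grey replicates 1, 2 and 3. In black replicates 1, 2 and 3 they held 78.9%, 22.5% and 63.3%. The joined share was thus highest in grey replicate 1 and black replicate 1 and did not separate the colours. In black replicate 3 the single joined transcript, at 2.26 TPM, shared more exon bases with PEX11A and was counted there, whereas in the other 5 libraries the joined transcripts were counted for PLIN1. With it, PLIN1 in black replicate 3 was at 3.57 TPM in place of 1.31 TPM, which was still the lowest of the 6 libraries. The range then became 6.12-fold, against 5.27-fold for ADIPOQ, and the black minus grey difference -0.45 on the log2 scale.

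A measure that depends less on which gene a joined transcript is counted for is the mean read depth over a fixed set of PLIN1 exons, divided by the aligned gigabases of the library. This was 2.20, 4.09 and 7.18 per gigabase in grey replicates 1, 2 and 3 and 4.70, 3.59 and 1.37 per gigabase in black replicates 1, 2 and 3. The order of the libraries was that of the TPM, with grey replicate 3 again highest and black replicate 3 lowest. On this scale the range was 5.23-fold for PLIN1, 6.86-fold for ADIPOQ, 5.19-fold for CIDEC and 2.61-fold for LPL. The black minus grey difference of PLIN1 was -0.47 in log2(depth + 0.1). In 5 libraries all 8 exons of the set were assembled, and in black replicate 3 it was 7. Depth is taken from assembled exons, so the missing exon counts as 0. The last exon of the set was covered 2.53 to 3.02 times as deeply as the rest in all 6 libraries.

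**Figure D2:**
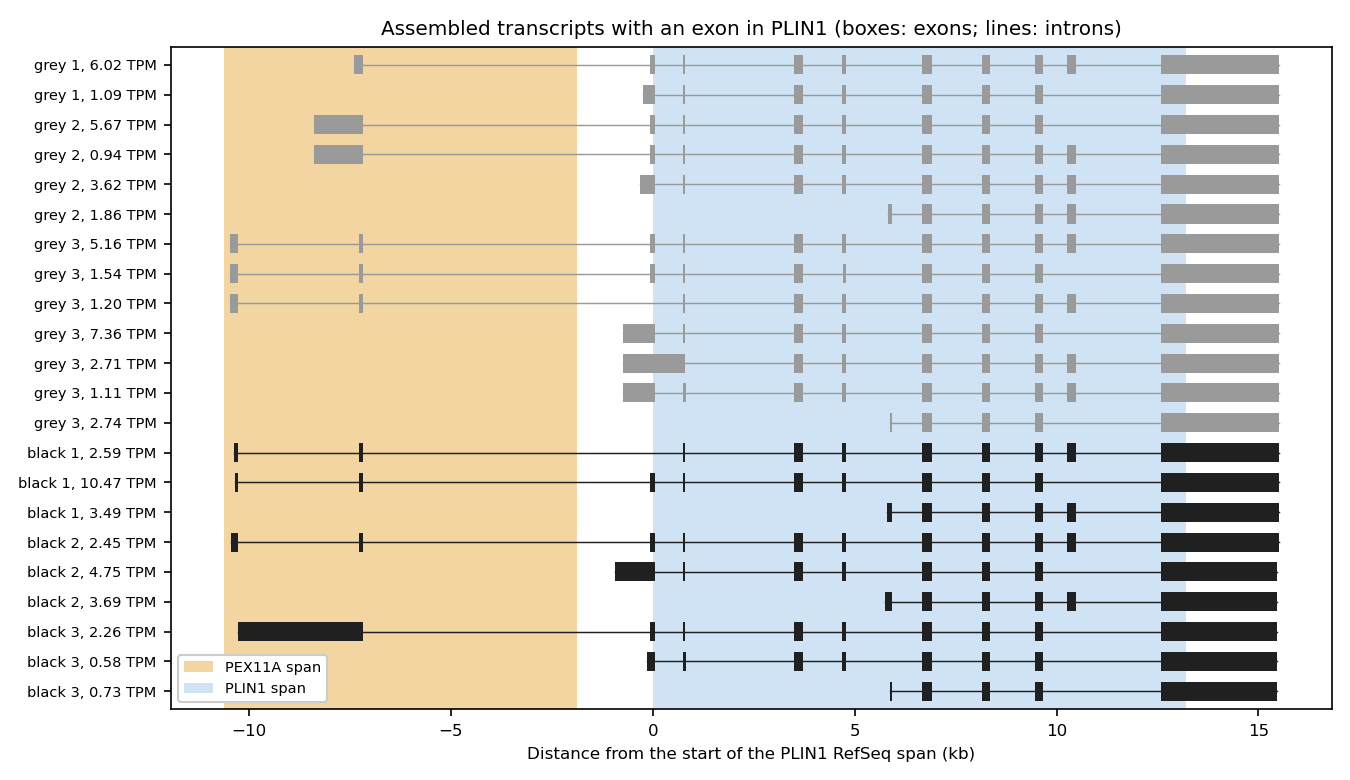
Each line is 1 assembled transcript with an exon in PLIN1, placed by distance from the start of the PLIN1 RefSeq span in kilobases (x axis), with exons as boxes, grey and black by coat colour, and its TPM at the left. The shaded spans are those of PEX11A and PLIN1, and transcripts that reach from one into the other occur in all 6 libraries.

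CIDEC (gene ID 118831342, chromosome 9, 154214822 to 154227107) encodes a protein that fuses lipid droplets in white fat cells. It measured 0.891, 0.430 and 0.454 TPM (grey replicates 1, 2 and 3) and 0.575, 0.368 and 0.850 TPM (black replicates 1, 2 and 3). The highest values were those of grey replicate 1 and black replicate 3, and the colours overlapped. These levels rested on 4.96 to 14.4 reads per library, and 2 to 5 of the 6 exons of the model were assembled in any 1 library. Its mean fell below the minimum of 1 TPM, and the difference in mean log2(TPM + 1) was 0.01 with a spread between replicates of 0.22 (pooled SD). That difference was -0.10 without black replicate 3 and 0.14 without grey replicate 1.

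The CIDEC transcripts were partial, which bears on their TPM because it is scaled to the assembled length. The transcript of black replicate 3 was 210 nt long and that of grey replicate 2 was 966 nt long. Over the same 6 exons in every library, read depth per aligned gigabase was 0.375, 0.184 and 0.0721 in the grey libraries and 0.0939, 0.0924 and 0.0828 in the black libraries. An exon that was not assembled counts as 0 in this depth, as exon 6 did in grey replicate 3 and black replicate 3. The measure therefore does not remove the effect of partial assembly. On that scale black replicate 3 was no longer high, and grey replicates 1 and 2 were above the other 4 libraries. The black minus grey difference was -0.59 in log2(depth + 0.1). The added 0.1 is above the depth of each black library, so the size of this difference depends on it.

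LPL (gene ID 118843515, chromosome 3, 298666338 to 298701823) encodes the enzyme that frees fatty acids from triglyceride-rich lipoproteins at the capillary wall. It measured 25.1, 24.0 and 51.8 TPM (grey replicates 1, 2 and 3) and 33.5, 37.4 and 20.6 TPM (black replicates 1, 2 and 3). Grey replicate 3 was the highest library and black replicate 3 the lowest, so that the black libraries lay inside the range of the grey ones apart from black replicate 3. The black minus grey difference in log2(TPM + 1) was -0.09 (SE 0.36, 95% confidence interval -0.94 to 0.76). It turned to 0.26 without grey replicate 3 and to 0.16 without black replicate 3, and was -0.28 to -0.18 without any 1 of the other libraries. LPL was the most completely assembled of the 4, as 1 transcript of 10 exons and 3599 to 3672 nt in each library, on 1650 to 8499 reads. The last exon was covered 0.870 to 0.990 times as deeply as the other exons.

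Markers of other cells that make LPL varied between the same libraries. Summed skeletal muscle markers (7 of 10 listed had an entry) were at 73.1 to 82.6 TPM (grey) and 76.1 to 3940 TPM (black), and LPL in the library of the highest sum, black replicate 1, lay between the other black libraries. Outside black replicate 1 the sum was mostly that of MB, at 70.5 to 123 TPM. CKM and TTN, which encode muscle creatine kinase and titin, were listed at 0 in every library but black replicate 1. Summed macrophage markers (8 of 8 had an entry) were at 399 to 463 TPM (grey) and 382 to 769 TPM (black), with the highest sum in black replicate 3, where LPL was lowest. The part of these cells in the LPL level was not tested.

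The 4 genes did not keep a fixed ratio to each other. ADIPOQ was 0.124, 0.107 and 0.0204 times LPL in grey replicates 1, 2 and 3 and 0.0865, 0.0572 and 0.0288 times LPL in black replicates 1, 2 and 3. PLIN1 was 0.0635 to 0.504 times LPL. The lowest ratio was that of black replicate 3, where the joined transcript was not counted for PLIN1, and the next lowest was 0.283, in grey replicate 1. In grey replicate 3, PLIN1 and LPL were at their highest while ADIPOQ was at its second lowest level. Averaged over the 4 genes, log2(TPM + 1) was 2.67, 2.68 and 2.95 in the grey libraries and 2.96, 2.73 and 1.80 in the black libraries, so the lowest library was black and the highest was black too. The value of 1.80 holds the same PLIN1 count without the joined transcript. The mean black minus grey difference of the 4 genes was -0.27 on the log2 scale, with a spread between libraries of 0.45 (SD). Without black replicate 3 the mean difference was 0.08, and without any other library it stayed between -0.50 and -0.18.

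**Figure D3:**
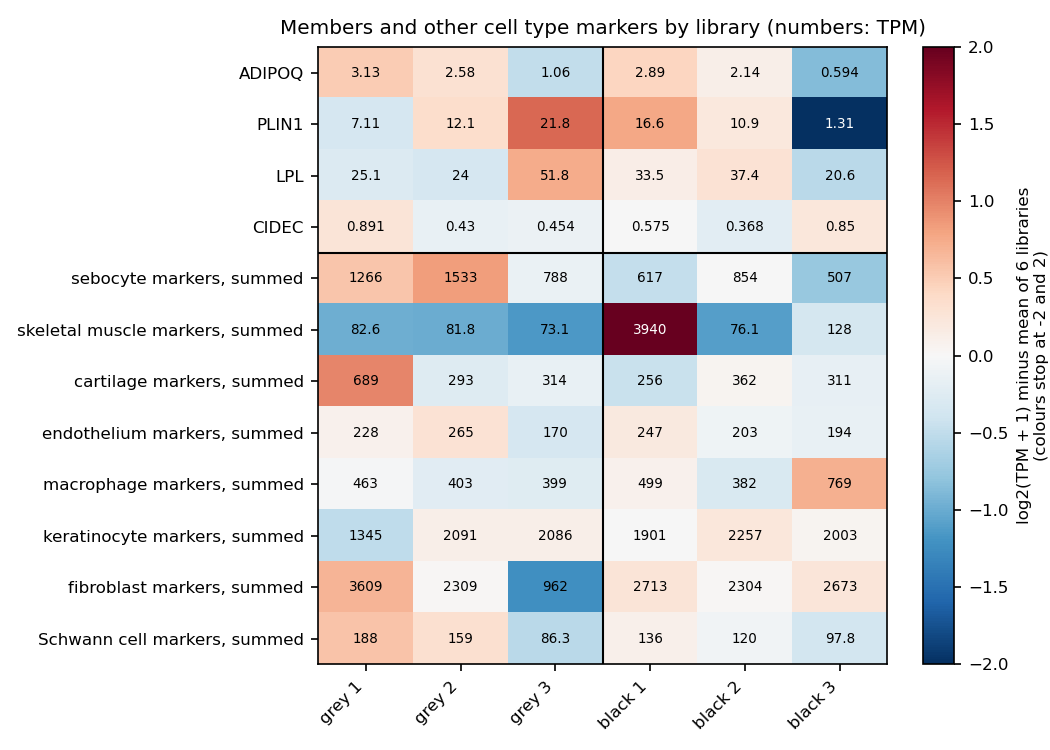
TPM (numbers) of the 4 adipocyte genes and of the summed markers of 8 other cell types in each library, coloured by log2(TPM + 1) minus the mean of the 6 libraries (red above, blue below). PLIN1 in black replicate 3 (1.31 TPM, without its joined transcript) and the muscle markers of black replicate 1 (3940 TPM) have the deepest colours. ADIPOQ and LPL do not follow the same order of libraries.

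A wider list of 83 genes of adipocyte function, none of them among the 6, was placed in the test across all genes. Of these, 78 had a RefSeq entry, 68 passed the minimum mean of 1 TPM, and 0 were called by limma, against 0.0193% of all genes tested. The 68 genes had values lower in black skin in 47 cases and higher in 21, with a median difference of -0.19 on the log2 scale, and 43.0% of all genes tested were lower in black skin. An unadjusted p under 0.05 (limma) was found for 5 of the 68, against 356 of all 15547 genes tested. These 5 were picked out after their values were seen: MGLL, ELOVL6 and ME1, with lower values in black skin, and AGPAT2 and VLDLR, with higher values. The adjusted p of each was 1.00 (limma, Benjamini-Hochberg). The colours did not overlap for 4 of the 68, which were AGPAT2, ME1, MLXIPL and VLDLR, against 6.31% of all genes tested. Without grey replicate 2 the median was -0.10, with 38 of 68 genes lower, and without black replicate 3 it was -0.11, with 43 lower.

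**Figure D4:**
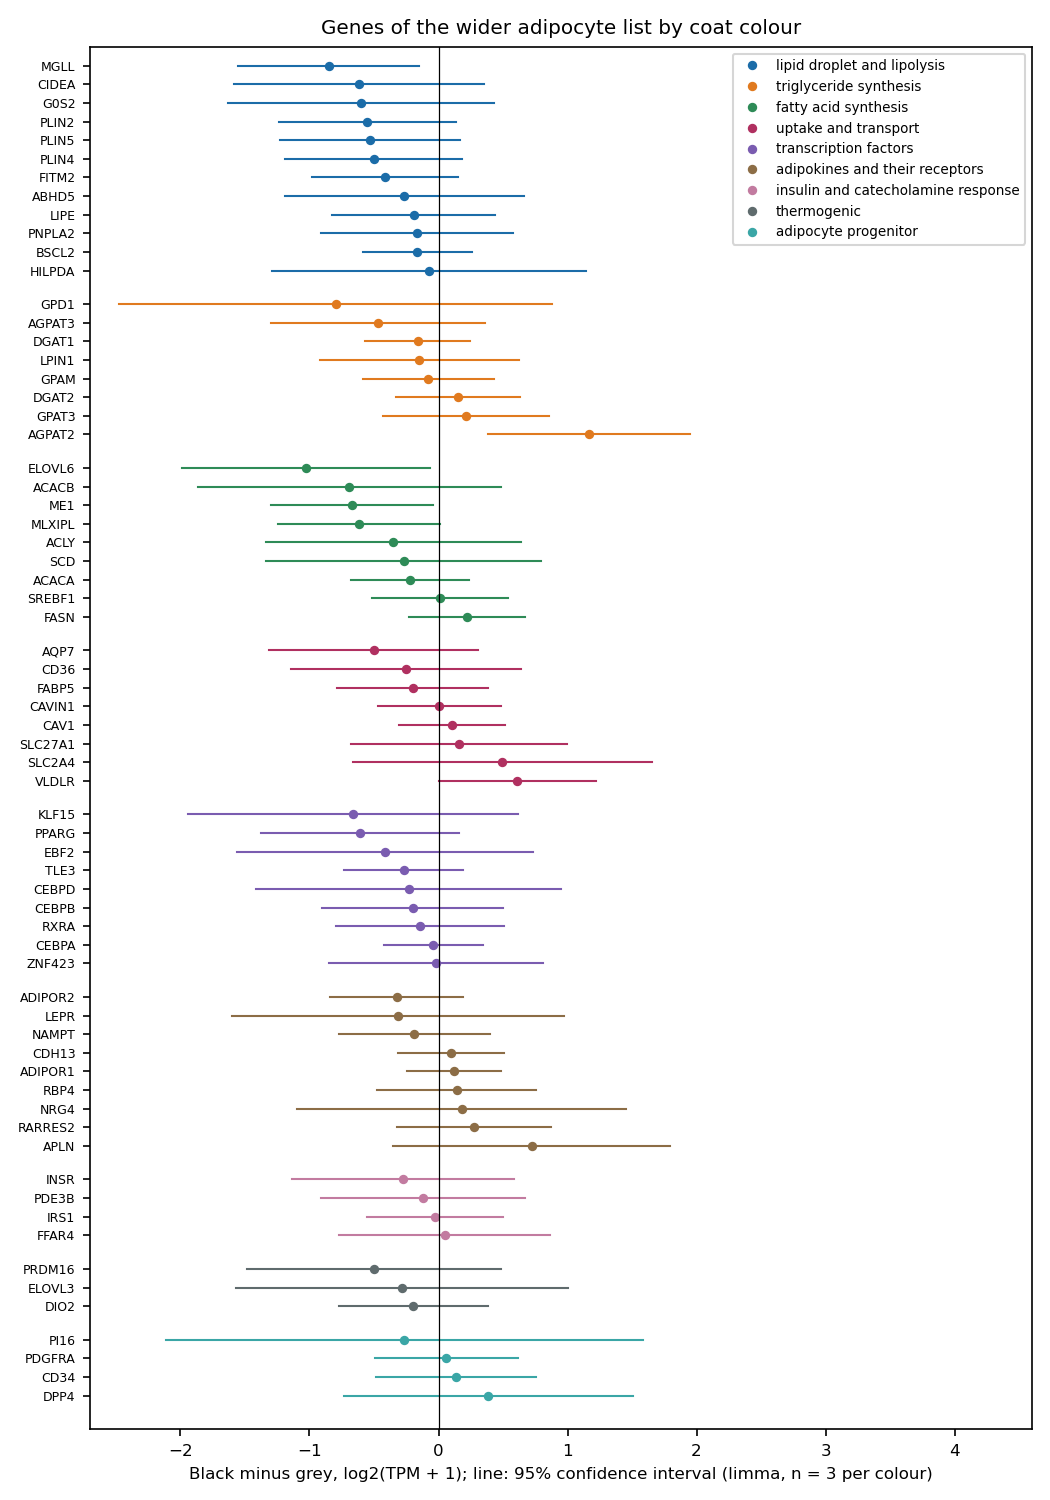
Black minus grey difference in log2(TPM + 1) (x axis, point) with its 95% confidence interval from limma (line, n = 3 per colour) for 66 of the 68 tested genes of the wider adipocyte list, coloured by functional group. The 12 lipid droplet genes and the 9 transcription factors all have points below 0, the intervals of all but 5 genes cross 0, and 0 of the 68 genes were called.

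The genes of the lipid droplet and of lipolysis had lower values in black skin in 12 of 12 cases (median difference -0.46), with 0 called by limma and 1 at an unadjusted p under 0.05. Their summed level was 975 to 1162 TPM (grey) and 562 to 936 TPM (black). PLIN2, the perilipin of small droplets in many cell types, measured 313, 430 and 288 TPM (grey) and 251, 310 and 158 TPM (black), and the colours overlapped. CIDEA, a droplet protein related to CIDEC, averaged 172 ± 70.8 TPM (grey) and 110 ± 44.3 TPM (black) (SD, n = 3), and ABHD5, the co-activator of triglyceride lipase, averaged 151 ± 83.7 and 117 ± 33.8 TPM. Over the 6 libraries the mean of CIDEA was 141 TPM and that of CIDEC 0.594 TPM. MGLL, the lipase that completes triglyceride breakdown, measured 59.5, 46.9 and 38.3 TPM (grey) and 20.3, 39.2 and 21.7 TPM (black), a difference of -0.85 (SE 0.30) in which only black replicate 2 reached the grey range. Without black replicate 3 the median difference of the group was -0.20, with 11 of 12 genes lower, and without grey replicate 2 or grey replicate 3 it was 10 of 12.

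Markers of the sebocyte, the lipid-filled cell of the sebaceous gland, also had lower values in black skin. Of 10 listed, 8 had an entry, MC5R was listed at 0 in every library, and the 6 tested genes were all on that side (median difference -0.59, 0 called by limma, 2 with an unadjusted p under 0.05), or 4 of 6 without grey replicate 1. Their summed level was 788 to 1533 TPM (grey) and 507 to 854 TPM (black). SOAT1, which esterifies cholesterol, measured 403, 481 and 300.0 TPM (grey) and 245, 181 and 142 TPM (black), and KRT79, a keratin of the gland duct, was at 462 ± 140.1 and 264 ± 99.4 TPM (SD, n = 3). The part of sebaceous glands in the lipid droplet values, and in those of the other groups of the wider list, was not tested.

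In triglyceride synthesis, 5 of 8 tested genes had lower and 3 higher values in black skin (median difference -0.11), with 0 called by limma and 1 at an unadjusted p under 0.05. AGPAT2, which adds the second fatty acid to the glycerol backbone, measured 32.3, 77.7 and 36.3 TPM (grey) and 113, 95.2 and 99.9 TPM (black). It had the largest difference in either direction among the 68 genes, 1.17 (SE 0.33), and its colours did not overlap. DGAT2, which makes the final triglyceride, averaged 137 ± 31.2 TPM (grey) and 149 ± 7.68 TPM (black), and AGPAT3, a related acyltransferase, averaged 96.8 ± 49.8 and 64.0 ± 2.87 TPM (SD, n = 3). Without grey replicate 3 the median difference of the group was 0.06, with 4 of 8 genes lower, and it was -0.08 without grey replicate 2, with 4 of 8 lower. PCK1 and MOGAT1 were under the minimum, PCK1 being listed at 0 in 5 of the libraries.

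In fatty acid synthesis, 7 of 9 tested genes had lower and 2 higher values in black skin (median difference -0.35), with 0 called by limma and 2 at an unadjusted p under 0.05. SCD, the desaturase that makes oleate, the highest gene of the group, measured 2451, 3039 and 1152 TPM (grey) and 1407, 2760 and 1257 TPM (black). ELOVL6, which lengthens palmitate, measured 393, 615 and 225 TPM (grey) and 169, 266 and 141 TPM (black), a difference of -1.03 (SE 0.40). For both genes replicate 2 was the highest library of each colour, and the colours overlapped. The summed sebocyte markers were also highest in replicate 2 of each colour. The part of sebaceous glands in the levels of SCD and ELOVL6 was not tested. ACLY, which supplies acetyl-CoA for lipid synthesis, averaged 104 ± 55.7 TPM (grey) and 76.2 ± 23.6 TPM (black) (SD, n = 3). ME1, the malic enzyme that supplies NADPH, measured 24.8, 39.9 and 21.8 TPM (grey) and 14.1, 19.9 and 17.9 TPM (black), with no overlap. The median difference of the group was -0.14 without black replicate 1, -0.22 without grey replicate 2, with 5 of 9 genes lower, -0.69 without grey replicate 3 and -0.57 without black replicate 2.

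Genes of uptake and transport had lower values in black skin in 3 and higher values in 5 of 8 tested cases (median difference 0.06), with 0 called by limma and 1 at an unadjusted p under 0.05. FABP5, the epidermal fatty acid binding protein, averaged 2243 ± 474 TPM (grey) and 1955 ± 454 TPM (black) (SD, n = 3) and had the highest mean of the whole list. CAVIN1 and CAV1, which build caveolae, were at 364 ± 76.8 and 257 ± 35.1 TPM (grey) and at 360 ± 26.4 and 276 ± 35.7 TPM (black) (SD, n = 3), differences of 0.01 (SE 0.20) and 0.10 (SE 0.17). VLDLR, a lipoprotein receptor, was at 2.62 to 3.26 TPM (grey) and 3.68 to 6.24 TPM (black), a difference of 0.61 (SE 0.26). GPIHBP1, which anchors LPL on capillaries, was under the minimum at 0.439 to 1.15 TPM over the libraries. SLC2A4, the insulin-regulated glucose transporter of fat and muscle, was named after its values were seen, since it was at 26.1 TPM in black replicate 1, the library of high muscle markers, and at 6.20 to 9.39 TPM in the other libraries. The part of muscle in that value was not tested. The median difference of the group fell below 0 without grey replicate 3 (-0.15, with 5 of 8 genes lower), black replicate 3 (-0.04) or black replicate 1 (-0.02), and was 0.14 when grey replicate 1 was left out and 0.13 when grey replicate 2 was.

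The transcription factors of adipocyte differentiation had lower values in black skin in 9 of 9 tested cases (median difference -0.23), and 0 were called and 0 had an unadjusted p under 0.05 (limma). CEBPD, which acts early in differentiation, measured 101, 94.3 and 278 TPM (grey) and 142, 164 and 70.3 TPM (black), the same order of libraries as LPL. CEBPB was at 89.7 ± 39.3 and 73.7 ± 5.29 TPM and CEBPA at 46.3 ± 4.93 and 45.1 ± 4.96 TPM in grey and black skin (SD, n = 3). PPARG, the master regulator of fat cell formation, measured 17.1, 17.4 and 11.5 TPM (grey) and 8.64, 15.2 and 6.60 TPM (black), a difference of -0.60 (SE 0.32) with overlapping colours. Without black replicate 3, and likewise without grey replicate 2, the group had 6 of 9 genes lower, with medians of -0.15 and -0.36. PPARGC1A was under the minimum. It was listed at 0 in all 3 grey libraries and in black replicate 3, and at 2.75 and 0.247 TPM in black replicates 1 and 2. Black replicate 1 was the library of high muscle markers, and the part of muscle in its value was not tested.

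Of 11 listed adipokines and their receptors, CFD and RETN had no entry, and 3 of the 9 tested genes had lower and 6 higher values in black skin (median difference 0.12), with 0 called and 0 at an unadjusted p under 0.05 (limma). CDH13 and ADIPOR1, both receptors of adiponectin, were at 81.4 ± 2.53 and 65.1 ± 7.14 TPM (grey) and at 87.9 ± 15.8 and 70.7 ± 4.85 TPM (black) (SD, n = 3). Both receptors were above ADIPOQ in every library and varied less between libraries, with a highest over lowest value of 1.44 for CDH13 and 1.30 for ADIPOR1, against 5.27 for ADIPOQ. RARRES2, which encodes the adipokine chemerin, was at 68.2 ± 22.4 and 80.3 ± 9.91 TPM. Without grey replicate 2 and likewise without grey replicate 3 the median difference of the group was 0.07.

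In the response to insulin and catecholamines, 4 of 6 tested genes had lower and 2 higher values in black skin (median difference -0.07), with 0 called and 0 at an unadjusted p under 0.05 (limma). INSR, the insulin receptor, was at 12.9 ± 5.30 and 10.5 ± 4.58 TPM (SD, n = 3). The median difference was 0.08 without black replicate 3, with 2 of 6 genes lower, and 0.004 without grey replicate 3, with 3 of 6 lower. TRARG1, a regulator of glucose transporter traffic in fat, and ADRB1 were listed at 0 in every library, and ADRB3, the adrenergic receptor of fat cells, was listed at 0 in 3 of the libraries and at 0.906 to 1.24 TPM in the others.

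UCP1, the uncoupling protein of brown fat, was listed at 0 in every library, which can also be a transcript that failed to be assembled. The other 3 thermogenic genes tested had lower values in black skin (median difference -0.28), with 0 called and 0 at an unadjusted p under 0.05 (limma). DIO2, which activates thyroid hormone, was at 30.5 ± 6.83 and 26.6 ± 6.49 TPM, PRDM16 at 3.39 ± 1.30 and 2.20 ± 1.47 TPM, and ELOVL3, which is also on the sebocyte list, at 1.93 ± 1.40 and 1.48 ± 1.27 TPM in grey and black skin (SD, n = 3). Without black replicate 2 the median difference was -0.03, with 2 of 3 genes lower, and without grey replicate 2 it was -0.56.

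Among genes of adipocyte progenitors, 1 of 4 tested genes had a lower and 3 a higher value in black skin (median difference 0.10), with 0 called and 0 at an unadjusted p under 0.05 (limma). PI16, a marker of progenitors and of a class of fibroblasts, measured 143, 45.7 and 15.0 TPM (grey) and 65.8, 34.7 and 25.0 TPM (black). It was highest in grey replicate 1 and lowest in grey replicate 3, a pattern over libraries that had a Pearson's r of 0.82 with ADIPOQ. CD34 was at 59.8 ± 14.1 and 66.0 ± 17.7 TPM, and PDGFRA, which is also on the fibroblast list, at 16.8 ± 4.02 and 17.4 ± 2.67 TPM in grey and black skin (SD, n = 3). Without grey replicate 3 all 4 genes were lower in black skin (median difference -0.12), and without grey replicate 1 it was 0 of 4 (0.40). Leaving out black replicate 1, black replicate 2 or grey replicate 2 gave medians of 0.05, 0.15 and 0.20.

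**Figure D5:**
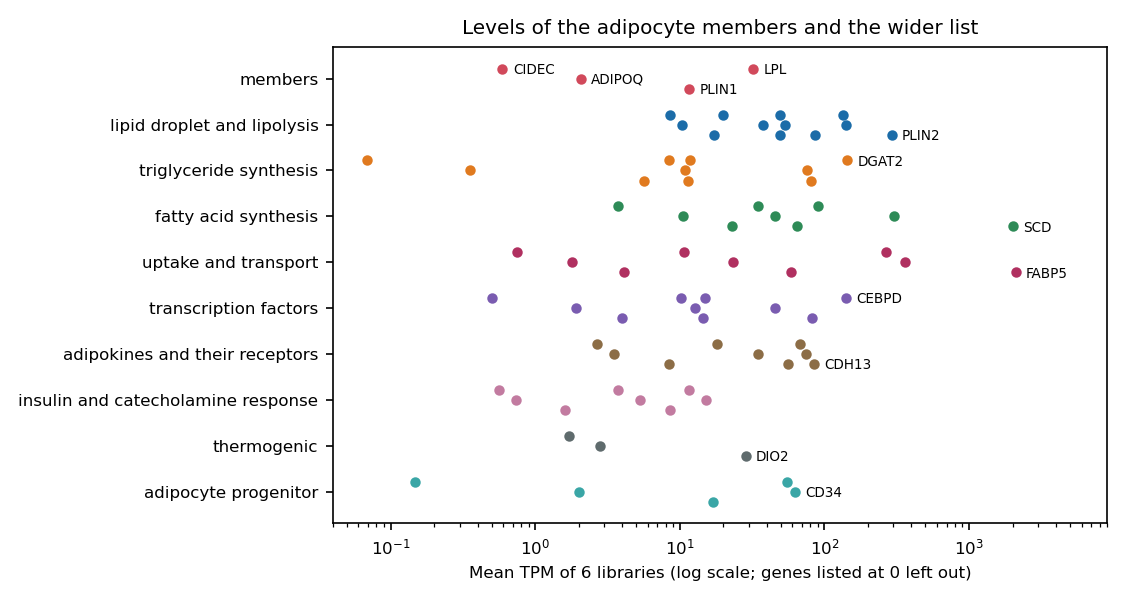
Mean TPM over the 6 libraries (x axis, log scale) of the 4 measured adipocyte genes and of the wider list by functional group, each point 1 gene, with the 4 genes and, for 8 of the groups, the highest gene named. LPL, PLIN1, ADIPOQ and CIDEC run from 32.1 down to 0.594 TPM, and SCD (2011 TPM) and FABP5 (2099 TPM) have the highest means.

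Summed over their lists, the markers of the other cell types of a punch were above the single genes ADIPOQ and CIDEC. A sum over several genes and the level of 1 gene are unlike measures. Some single markers, such as MATN1 of cartilage (mean 0.559 TPM), were not above either gene. Summed keratinocyte markers (3 of 7 listed had an entry) were at 1345 to 2091 TPM (grey) and 1901 to 2257 TPM (black), cartilage markers (10 of 10) at 293 to 689 and 256 to 362 TPM, and endothelial markers (8 of 8) at 170 to 265 and 194 to 247 TPM. Of these lists 0 genes were called by limma and 0 had an unadjusted p under 0.05. Macrophage markers had higher values in black skin in 8 of 8 tested cases (median difference 0.32, 0.09 without black replicate 3 and 0.53 without black replicate 2) and fibroblast markers in 5 of 5 (0.50, and -0.14 without grey replicate 3, 0.25 without black replicate 3 and 0.87 without grey replicate 1). Muscle markers were higher in 7 of 7 (2.47), but without black replicate 1 only 3 of them passed the minimum mean and their median difference was 0.31. Schwann cell markers were lower in 4 of 4 (-0.31) and in 3 of 4 without grey replicate 1 (-0.10) or black replicate 3 (-0.14), and the median was -0.18 with grey replicate 2 left out. In these 4 lists 0 genes were called and 1 had an unadjusted p under 0.05, that of SOX10. By the rule of the 2 highest genes, DSG1 and DSC1 led the keratinocyte, ACAN and CNMD the cartilage, PECAM1 and VWF the endothelial, C1QA and C1QC the macrophage, DCN and LUM the fibroblast, and MB and MYL1 the muscle list.

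The genes whose levels followed the mean of the 4 adipocyte genes most closely were taken from 9488 genes with a symbol and a mean of at least 5 TPM. By Pearson's r of log2(TPM + 1) over the 6 libraries they were ANO5, NDUFV2, ATP5PO, BCKDHA, DDX28, JUND, TRIM26, TAF3, PRKCZ and DPF2, with r from 0.996 down to 0.969, and 56 genes had an r of at least 0.9. ANO5, of the anoctamin family of membrane proteins, measured 34.7, 35.6 and 39.9 TPM (grey) and 39.6, 36.1 and 26.2 TPM (black). NDUFV2, a subunit of mitochondrial complex I, was at 94.5 to 116 TPM in the grey libraries and, in black replicates 1, 2 and 3, at 128, 102 and 37.5 TPM. All 10 were lowest in black replicate 3, and for DDX28 that library was listed at 0. The mean used to choose them was itself lowest there, with PLIN1 counted without its joined transcript, so this follows from the choice of genes. These are the closest of 9488 genes over only 6 points, and no gene of the wider adipocyte list was among the 10.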

How the data were processed

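RNA-sequencing of ear skin of 6 possums was analysed from 1 file of assembled transcripts per library. The study's methods, the submitters' notes and the headers of the files describe the steps before deposit. The authors used Trim Galore (version 0.6.10) to trim bases of a Phred score under 20, HISAT2 (version 2.2.1) to align to the possum reference and StringTie (version 2.2.0) to assemble the libraries one by one, after taking out reads of an amplicon contaminant. The values deposited by the authors are coverage, FPKM and TPM per transcript and coverage per exon. They are not read counts.

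TPM was summed per gene. The RefSeq table (assembly mTriVul1.pri, the files' reference) gives spans without exons or strand, so both were inferred from assembled transcripts matching the span (0.5 of the joint span, or 80% inside), a deviation from the planned use of annotated exons. Each of 274079 transcripts then went to the same-strand gene that had the most exon bases in common with it, otherwise to its reference gene name, and 232436 were assigned, with 81.1% to 89.1% of TPM. Neighbouring genes joined in 1 transcript, and near-identical copies, make single values uncertain. Aligned bases are coverage over FPKM, and reads are coverage divided by the read length of 120 bp. No counting intervals were computed, since the files hold no counts.

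Black and grey were compared with limma (version 3.58.1, R version 4.3.3, lmFit and eBayes with trend, two-sided) on log2(TPM + 1) for genes averaging 1 TPM or more, adjusted by Benjamini-Hochberg over all of them (threshold 0.05). Differences on that scale understate changes of low genes. The fit was tested on simulated data. With 3 against 3 an exact permutation test cannot go below p = 0.1 and was not used. The members, lists and alternatives were chosen with earlier results of these data known. Named genes were the members, the 3 highest genes of each group of the wider list, genes listed at 0 that define fat cells, the 10 genes most like the members and the 2 highest markers of each other list, beside genes marked in the text as named after their values were seen and PPARG, GPIHBP1, PPARGC1A, PCK1, MOGAT1, ADRB3, MLXIPL, CKM, TTN and SOX10, which were likewise named with values in view. Some genes that the rule names are not reported here. A gene was called overlapping between colours where the ranges of its 3 values overlapped. Python (version 3.11.15) and matplotlib (version 3.10.9) made the figures.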

Additional observations from a re-analysis of the deposited data

How the results depend on the processing

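The count of genes called over all genes was 3, and was 1 at a minimum mean of 5 TPM, 0 with the replicate number as a block and 0 by reference gene names alone, where 487 genes were tested. Leaving out 1 library gave 0 to 3 calls, with 0 without grey replicate 1, grey replicate 2 or black replicate 3 and 1 without black replicate 1. The wider adipocyte list had 0 genes called by limma under every alternative tried, and its median difference, -0.19, was -0.41 by reference gene names alone, which left 3 of its genes. Without 1 library that median was -0.19 to -0.10. The mean difference of the 4 adipocyte genes, -0.27, was -0.50 to 0.08 without 1 library, with the value above 0 without black replicate 3. It was -0.35 with a pseudocount of 0.1 TPM, -0.46 over the 3 genes past the filter with library weights and -0.30 after median-of-ratios scaling. Chosen after seeing the data, counting all same-strand transcripts of the spans gave -0.19 and read depth over fixed exons -0.39, the latter in log2(depth + 0.1). Reference gene names alone gave no value for these genes. Of 437 values of single genes under alternatives, 2 moved by over 1 SD: CIDEC to -0.59 with fixed exons and CEBPD to 2.45 with multi-exon transcripts only, for which the cause was not tested. The CIDEC value is in log2(depth + 0.1) and not in log2(TPM + 1), so it is not on the scale of the main value. Same-numbered grey and black libraries did not deviate together (r of -0.03, 0.01 and -0.05), so the replicate block pairs libraries by number only, and it changed no other call. Depth limits CIDEC most, at 4.96 to 14.4 reads per library.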

Other observations

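Genes with a locus identifier but no name lie between FABP5, a fatty acid binding protein gene, and IMPA1 on chromosome 1 of mTriVul1.pri. They were picked after seeing the data and were not identified. LOC118833640 (300822929 to 300830754), assembled with 4 exons in each library, measured 37.8, 20.1 and 6.40 TPM (grey replicates 1, 2 and 3) and 21.2, 7.84 and 5.53 TPM (black replicates 1, 2 and 3). This is the same order of libraries as ADIPOQ, with a Pearson's r of 0.88 on log2(TPM + 1), which ranked 68 among 11877 genes. LOC118833639 (300779863 to 300786001) measured 7.97, 5.02 and 2.11 TPM (grey) and 4.49, 2.54 and 2.65 TPM (black). LOC118833641 (300811695 to 300818258) was at 214 TPM in grey replicate 1 and at 1.54 to 3.14 TPM in the other libraries, in 4 exons throughout. LOC118833659 was at 0.693 and 0.439 TPM in grey replicates 1 and 2 and listed at 0 in the others. How reads of similar copies were divided among these genes was not tested. The same search between RBM28 and SND1 on chromosome 5 gave LOC118849815, which was listed at 0 in every library and was not identified either.

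Likeness was also computed to ADIPOQ alone and to LPL alone, chosen after seeing the data, over the same 9488 genes and 6 libraries. Closest to LPL was CEBPD, a gene of the wider adipocyte list, with a Pearson's r of 0.997 and a Spearman's rho of 1, followed by F3, which encodes tissue factor, with an r of 0.98. F3 measured 275, 254 and 385 TPM (grey) and 304, 348 and 227 TPM (black). An r of at least 0.9 to LPL was found for 85 genes. Closest to ADIPOQ was TNS1, which encodes tensin 1, with an r of 0.97. It measured 65.7, 58.6 and 42.2 TPM (grey) and 61.5, 56.6 and 42.4 TPM (black), and 39 genes reached an r of 0.9. ADIPOQ and LPL shared no gene among their 10 closest. LPL and PLIN1 had an r of 0.78 with each other. Each of these is the closest of 9488 genes over 6 points and is a description.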
